A study of Sus scrofa with 48 samples.

Results

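The kidney comparison set the 8 pigs of the methyl-supplemented line (suppl_diet, F2 E) against the 8 pigs of the control line (control_diet, F2 C), taken by the tissue and diet labels, and used the 16 kidney arrays of the 48 arrays in the study. Each array held the RNA of 1 pig. The study asked whether a diet given to grandsires left a trace in their grandoffspring. The pigs were Swiss Large White, their F0 grandsires had been fed the study diets, and their F1 sires had eaten standard feed.

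For F2 E, the F0 boars received a standard diet with added methionine, choline, betaine, folate and the vitamins B6 and B12 from 1 to 10 months of age. For F2 C, the F0 boars received the standard diet alone over the same months. Each line held 4 males, castrated in this study, and 4 females, all slaughtered at market weight. The labels give no litter or sire of a single pig, so pigs of 1 line may be relatives. The F2 pigs themselves did not receive the supplement. Pig numbers fell into a lower and an upper series with a gap between them, and each series held 4 pigs of each line, 2 males and 2 females. The labels do not say what sets the series apart.

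Nephrons filter plasma in the glomerulus, reclaim solutes along the proximal tubule and loop, and set salt, water and acid excretion in the distal tubule and collecting duct. The kidney also makes renin and erythropoietin, activates vitamin D, forms glucose and clears drugs with cytochromes P450 and transporters. Betaine, choline, methionine and folate feed the one-carbon cycle, which supplies methyl groups, and kidney tissue carries enzymes of that cycle.

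Signals are given as the log2 of the scanner's median spot signal, quantile-normalized over the 16 kidney arrays, and ratios are F2 E minus F2 C on that scale. The median spot signal of an array was 100 at the lowest, 147.5 at the median and 178 at the highest in F2 C, and 48, 147.25 and 240.5 in F2 E. F2 E replicates 5 and 7, both of the lower series, stood apart, each with a median signal of 48. Their median correlations with the other arrays were 0.953 and 0.955, where no other array lay below 0.975. They also had the fewest spots well above background, 27156 and 25071. The 16 arrays lay on 4 slides, and each slide carried the 4 pigs of 1 line and 1 series. Within a number series, line and slide therefore cannot be told apart.

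The tissue label was checked against marker genes with all 48 arrays scaled together. Of 14 kidney markers, 7 had a probe, and 6 of these were higher on every kidney array than on every liver and muscle array. SLC34A1, the phosphate transporter of the proximal tubule, spanned 14.96 to 16.4 in kidney and reached 6.23 in liver and 6.37 in muscle. SLC22A6, an organic anion transporter, was the exception, with 7.83 to 10.43 in kidney against a highest value of 7.85 in liver. The collecting duct marker AQP2 had no named probe, so these cells were not checked.

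Over both series together, 4 of 33662 tested probes passed an adjusted p of 0.05 in limma, which is 0.0119%, with F2 E above F2 C for 1 and below it for 3. One of the 4 has a gene name, MBOAT7. At an unadjusted p under 0.01 there were 336 probes (0.998%), with F2 E above F2 C for 163 and below it for 173, and 63 of the 336 (0.187%) also differed at least 2-fold. Among 1890 genes with a name, each taken by its brightest probe, 40 had an unadjusted p under 0.01 (2.12%). Names taken from the study's own gene tables raised that share, since the study chose those genes on these arrays. Among the 1654 genes named through RefSeq it was 14 (0.846%). Without the 2 dim arrays, 7 probes passed the adjusted threshold and 512 the unadjusted one. With slide as a random block 1 and 97 did, and the count at least 2-fold apart was 136 with the scanner's processed signal scaled to the 75 percentile and 40 with normexp background correction. RNA came from whole tissue, so fewer cells of a type and less RNA per cell cannot be told apart.

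MBOAT7, named through the study's text, is an acyltransferase that places arachidonic acid in phosphatidylinositol. Its signal was 10.14 at the lowest, 10.54 at the median and 10.98 at the highest in F2 C, and 8.14, 8.36 and 10.05 in F2 E. The lines did not overlap, and 1 F2 E pig of the upper series came close to the F2 C pigs. MBOAT7 fell with a log2 ratio of -1.88 (SE 0.24) and a limma adjusted p of 0.00634, lower than the F2 C median in 8 of 8 F2 E pigs. The exact two-sided permutation p was 0.000155, the smallest that 8 against 8 pigs can give. The lower series held 4 F2 C pigs with 10.14, 10.56, 10.52 and 10.98 and 4 F2 E pigs with 8.38, 9.25, 8.16 and 8.59. In the upper series the F2 C pigs had 10.26, 10.61, 10.76 and 10.44 and the F2 E pigs 8.14, 8.34, 10.05 and 8.27. Both series showed MBOAT7 lower, with ratios of -1.95 (adjusted p 0.00703) and -1.82 (adjusted p 0.0172), each in 4 of 4 F2 E pigs, and the lower ratio was -2.28 without the 2 dim arrays. The upper call was lost without F2 C replicate 2 (adjusted p 0.0613) or without F2 E replicate 8 (0.0729), 1 (0.0789) or 2 (0.0675), and from the 8 upper arrays alone (0.0519). With slide as a random block the pooled adjusted p of MBOAT7 was 0.285. The same probe had a ratio of -2.04 in liver and -1.61 in muscle of the same pigs. The study picked MBOAT7 for its differences in liver and muscle on these arrays, so these ratios are no independent evidence. In the study's real-time PCR the liver difference was not significant, although its trend was similar, and the muscle result resembled that of the arrays.

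The other 3 called probes carry no gene name in the files. A_72_P289994 had 7.77, 7.98 and 8.72 as lowest, median and highest signal in F2 C and 9.23, 9.84 and 10.78 in F2 E. The lines did not overlap and each series kept the order. A_72_P289994 rose by a log2 ratio of 1.82 (SE 0.2, limma adjusted p 0.00214), higher in 8 of 8 F2 E pigs, with 1.3 in the lower and 2.35 in the upper series. It alone of the 4 passed with slide as a random block (adjusted p 0.0422). The difference of A_72_P289994 between the series was not called (adjusted p 0.104). The same probe had a ratio of 1.84 in liver and 1.54 in muscle of the same pigs.

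A_72_P027211 had 6.92, 7.25 and 7.84 as lowest, median and highest signal in F2 C and 6.17, 6.35 and 6.46 in F2 E. The lines did not overlap, with 8 of 8 F2 E pigs below every F2 C pig and 7 of them well above background. A_72_P027211 fell in F2 E at a limma adjusted p of 0.0069, with a fitted ratio of -1.01 (SE 0.13). That call was lost with slide as a random block (adjusted p 0.293), normexp background correction (0.0653) or scaling to the 75 percentile (0.49). In the same pigs A_72_P027211 had a ratio of -1.08 in liver and -0.5 in muscle. A_72_P102091 had 5.49, 7.29 and 7.79 in F2 C and 4.77, 5.18 and 5.52 in F2 E, where 0 of 8 pigs were well above background. Only 1 F2 C pig, replicate 4 at 5.49, reached into the F2 E range. With these signals the F2 E mean of A_72_P102091 was therefore at least 2.79-fold lower, by 3.24-fold in the lower and 2.41-fold in the upper series. All 8 F2 E pigs lay below the F2 C median, and 7 below every F2 C pig (limma adjusted p 0.0069). That call was lost with slide as a random block (0.285) or scaling to the 75 percentile (0.373). Its ratios were -1.08 in liver and -0.21 in muscle of the same pigs.

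The named genes PON3, IYD, SAL1 and GAL had large pooled ratios that failed the correction. PON3, a lactonase carried on high-density lipoprotein, had 7.79, 8.15 and 10.04 as lowest, median and highest signal in F2 C and 8.16, 11.75 and 12.75 in F2 E. The F2 E pigs of the upper series were all high, while in the lower series only the 2 pigs with dim arrays were. The pooled ratio of PON3 was 2.65 (SE 0.63, adjusted p 0.329) and the exact p was 0.00326. In the upper series the F2 C pigs had 7.79, 8.21, 8.45 and 8.08 and the F2 E pigs 12.06, 11.95, 11.55 and 12.75. PON3 rose there by 3.94 (SE 0.75, adjusted p 0.0145), in 4 of 4 pigs, and that call was lost without F2 C replicate 1 (adjusted p 0.0533) or F2 E replicate 8 (0.0606). The lower F2 C pigs had 8.1, 10.04, 7.79 and 8.31 and the lower F2 E pigs 8.16, 10.77, 8.25 and 12.48. That ratio was 1.36, and it was -0.35 without F2 E replicates 5 and 7, the 2 dim arrays at 10.77 and 12.48. The difference of PON3 between the series was not called (adjusted p 0.227). PON3 also rose in the upper series in liver (4.36, adjusted p 0.0347) and in muscle (2.8, adjusted p 0.0102) of the same pigs. A dimmer PON3 probe had a pooled ratio of 0.51, and 0.88 in the upper series.

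IYD, which removes iodine from iodotyrosines so that iodide can be used again, had 9.58, 10.39 and 11.21 in F2 C and 11.09, 11.55 and 12.01 in F2 E. Only 1 F2 C pig, at 11.21, lay within the F2 E range. The pooled ratio of IYD was 1.19 (SE 0.22, adjusted p 0.155) and the exact p was 0.000466. The lower F2 C pigs had 10.64, 9.58, 10.14 and 10.03 and the lower F2 E pigs 12.01, 11.28, 11.82 and 11.22. IYD rose there by 1.49 (adjusted p 0.016), in 4 of 4 pigs, and the ratio was 1.82 without the 2 dim arrays. That call was lost without F2 C replicate 6 (adjusted p 0.061) or 8 (0.0537) or F2 E replicate 4 (0.0517), and from the 8 lower arrays alone (0.0535). The upper ratio of IYD was 0.89 (adjusted p 0.235), and the ratios in liver and muscle were 1.48 and -0.17. The study picked IYD for its liver difference on these arrays, so the liver ratio is no independent evidence. In the study's real-time PCR IYD was also higher in F2 E liver.

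SAL1, a porcine salivary lipocalin that binds odorants, had the largest ratio among the named genes at an unadjusted p under 0.01. Its signal was 5.72, 6.99 and 14.26 in F2 C and 5.98, 14.86 and 16.7 in F2 E, as lowest, median and highest. One F2 C pig stood high at 14.26 and 1 F2 E pig low at 5.98, both in the upper series, and in the lower series the lines did not overlap. The pooled ratio of SAL1 was 5.39 (SE 1.5, adjusted p 0.636, exact p 0.00839), with 7.23 in the lower and 3.54 in the upper series, neither called. GAL, the neuropeptide galanin, had 5.45, 6.13 and 8.55 in F2 C and 6.82, 8 and 8.94 in F2 E, with 7 of 8 F2 C pigs well above background. All 8 F2 E pigs lay above the F2 C median and the ranges overlapped. The exact p of GAL was 0.0135 and its limma adjusted p 0.746.

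The next probes, of COIL, PAAF1, HNRNPA1, PCBP2 and BTBD11, carry a name only through the study's kidney gene table, so they were chosen on these arrays and their differences are no independent evidence. COIL, the scaffold protein of Cajal bodies, had 7.5, 9.21 and 10.11 in F2 C and 9.72, 10.2 and 11.74 in F2 E, with a pooled ratio of 1.4 (exact p 0.00311). PAAF1, a regulator of proteasome assembly, had 10.26, 12.05 and 12.53 in F2 C and 12.48, 12.65 and 12.78 in F2 E, with a pooled ratio of 0.95 (exact p 0.000311). Both were above the F2 C median in 8 of 8 F2 E pigs and overlapped with F2 C. The lower ratio of COIL was 2.18, or 1.5 without the 2 dim arrays, whose signals of 11.51 and 11.74 were its highest, and the upper ratio was 0.61. The lower ratio of PAAF1 was 1.42, with F2 C replicates 5 and 6 low at 10.26 and 10.36, and the upper ratio was 0.48. COIL and PAAF1 were also higher in F2 E in the other tissues, with 1.22 and 0.94 in liver and 1.24 and 1.14 in muscle.

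HNRNPA1, a splicing regulator, had 11.92, 12.52 and 12.89 in F2 C and 12.43, 13.78 and 13.96 in F2 E, with a pooled ratio of 1.01 and 0.78 and 1.24 in the series, and a lower ratio of 1.22 without the 2 dim arrays. The other 4 HNRNPA1 probes had ratios from 0.34 to 0.44. PCBP2, which binds cytosine-rich RNA, had 13.71, 13.84 and 14 in F2 C and 14.06, 14.33 and 15.13 in F2 E. The lines did not overlap for this PCBP2 probe, with a ratio of 0.55 and 0.54 and 0.57 in the series (exact p 0.000155), but the lower ratio was 0.27 without the 2 dim arrays and a brighter PCBP2 probe had a pooled ratio of 0.19. BTBD11, a protein with a BTB domain, had a ratio of 0.74, with 0.66 and 0.82 in the series. ITIH1, a hyaluronan-binding plasma protein, had a pooled ratio of -1.03, with a lower ratio of -0.69 that was -0.17 without the 2 dim arrays, while a dimmer ITIH1 probe had 0.08. None of these genes passed the correction over all probes.

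**Figure D1:**
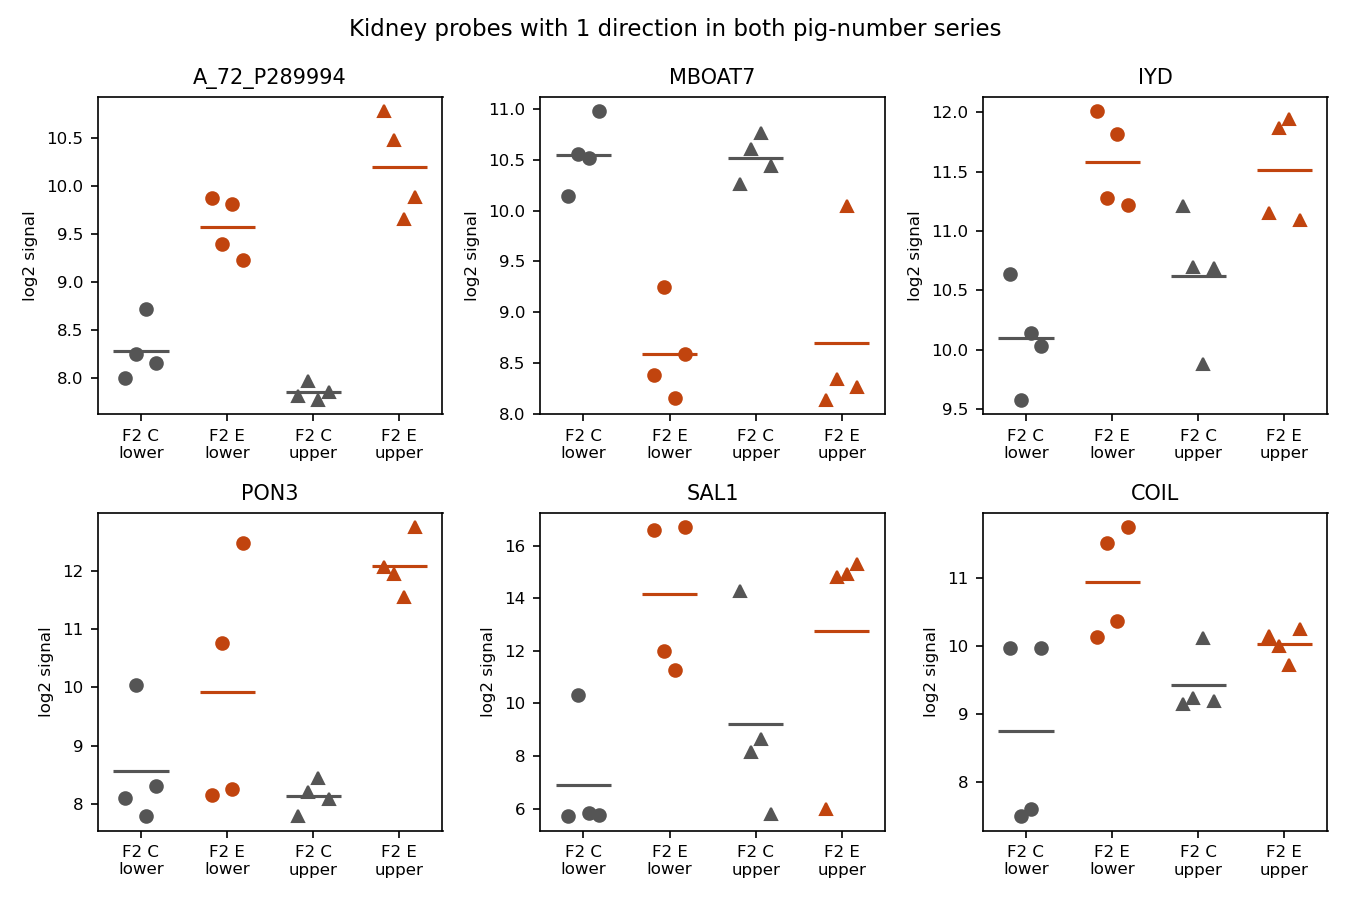
Log2 signal of 6 kidney probes in each pig, by line (grey F2 C, orange F2 E) and pig-number series (circles lower, triangles upper), with a bar at the mean of each 4 pigs. A_72_P289994 and MBOAT7 separated the lines in both series, SAL1 spread from 5.72 to 16.7 among pigs, and in the lower series the 2 high F2 E pigs of PON3 were those with dim arrays.

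Within the series the picture changed, and most large differences of 1 series ran the other way in the other series. Limma called 591 of 33661 probes in the lower series at an adjusted p of 0.05 (1.76%), with F2 E below F2 C for 469 and above it for 122. It called 392 in the upper series (1.16%), 77 below and 315 above F2 C. Of the 591 lower-series calls, 502 had the opposite sign in the upper series, where 383 of them had an unadjusted p under 0.05. Of the 392 upper-series calls, 350 had the opposite sign in the lower series. Over all probes 62.1% had opposite signs. The lower count was 272 with scaling to the 75 percentile, 214 from its 8 arrays alone and 373 without F2 C replicate 8. The upper count was 207 with that scaling, 240 and 230 without F2 C replicates 1 and 2, and 231, 215 and 234 without F2 E replicates 8, 1 and 2. Over all probes the lower and upper ratios had a Pearson correlation of -0.323 and a Spearman correlation of -0.343. Probes are not independent replicates, and the ratios of all probes come from the same 4 slides.

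The difference between the series was tested directly as lower ratio minus upper ratio. It passed for 1198 of 33661 probes (3.56%), 845 with a negative and 353 with a positive difference. The common pattern, in 834 probes, was lower in F2 E in the lower series and higher in F2 E in the upper series, with median ratios of -0.77 and 0.74. Without the 2 dim arrays the counts were 680 in the lower series, 730 in the upper series and 1580 for the difference. With all arrays the difference count was 576 with the median signal and 725 with the processed signal, both scaled to the 75 percentile. The 3 counts without the dim arrays shared 380, 392 and 945 probes with the calls made on all arrays. Among the 1890 named genes 46 were called for the difference (2.43%). Since every cell of line and series is a slide of its own, series and slide effects on these differences cannot be told apart.

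The 336 probes at a pooled unadjusted p under 0.01 were of another kind. Of these, 333 had the same sign in both series, a property that the pooled test favours. Both series reached an unadjusted p under 0.05 for 106 of them, the lower series alone for 117 and the upper series alone for 110. Over all probes, 115 had an unadjusted p under 0.05 with the same sign in both series (0.342%) and 1178 with opposite signs (3.5%).

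**Figure D2:**
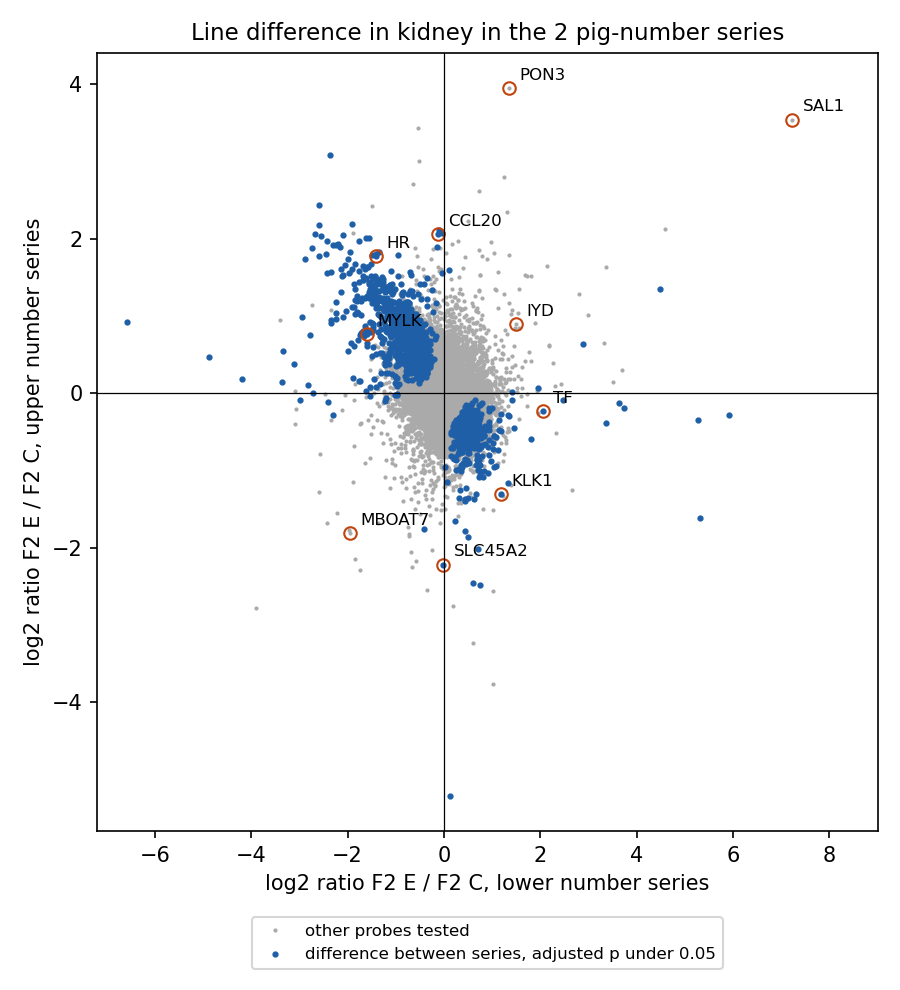
Line difference of each of 33661 kidney probes in the lower (x axis) and upper (y axis) pig-number series, as log2 ratio F2 E minus F2 C. Blue points, 1198 probes called for the difference between series, lie mostly in the quadrants of opposite sign, and MBOAT7 lies with negative ratios in both.

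HR, a corepressor of nuclear receptors such as the vitamin D receptor, had the most negative difference between the series among the named genes called for it. In the lower series the F2 C pigs had 11.09, 11.25, 11.19 and 11.08 and the F2 E pigs 9.25, 10.3, 9.34 and 10.03. In the upper series the F2 C pigs had 9.71, 9.39, 9.66 and 10.53 and the F2 E pigs 11.45, 11.84, 11.46 and 11.65. The lines did not overlap in either series, and their order was exchanged. HR fell by 1.42 (SE 0.25, adjusted p 0.00531) in the lower series and rose by 1.77 (adjusted p 0.00119) in the upper series, each in 4 of 4 F2 E pigs. The difference of HR was -3.19 (SE 0.35, adjusted p 3.83e-05), and without the 2 dim arrays its lower ratio was -1.86. A dim HR probe had -0.04 and -0.31. In muscle of the same pigs the difference of HR was called in the other direction, at 2.46 (adjusted p 0.000312), and in liver it was not called (adjusted p 0.888).

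MYLK, the kinase that starts smooth muscle contraction, showed the same exchange. In the lower series the F2 C pigs had 11.93, 12.55, 12.26 and 12.26 and the F2 E pigs 10.59, 10.91, 10.92 and 10.19. In the upper series the F2 C pigs had 10.94, 10.91, 10.89 and 11.27 and the F2 E pigs 11.78, 11.83, 11.98 and 11.47. The lines did not overlap in either series. MYLK fell by 1.6 (SE 0.18, adjusted p 0.000123) in the lower series, in 4 of 4 F2 E pigs, and had 0.76 (adjusted p 0.0648) in the upper series. The difference of MYLK was -2.36 (adjusted p 3.97e-05), while its other 2 probes had -0.21 and -0.55 in the lower and 0.35 and 0.32 in the upper series, not called. In muscle of the same pigs the difference of MYLK was also called in the other direction, at 2.62 (adjusted p 0.000318), and it was not called in liver.

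MYLK is also one of 9 endothelium and smooth muscle markers present. It was the 1 marker with an unadjusted p under 0.05 in either series. Opposite signs in the series were found for 8 of the 9, beside 63.7% of all named genes, with medians of -0.21 and 0.22. PECAM1, an endothelial adhesion molecule, had 0.63 and -0.09, where the lower ratio was 0.02 without the 2 dim arrays, and its other probe had -0.36 and 0.04. FLT1, a receptor of endothelial growth factor, had -0.35 and -0.18. Their mean log2 signal per pig spanned 10.74 to 11.5 in F2 C and 10.34 to 11.24 in F2 E in the lower series, and reached 10.76 in F2 C and 11.19 in F2 E in the upper series. The brightest marker, DES, had ratios of -0.04 and 0.26. Without the 2 dim arrays the lower ratios were -0.42 for DES, -0.19 for FLT1 and -1.5 for MYLK. VWF, KDR, ACTA2 and MYH11 were absent from the named probes present. The part of these cells in the MYLK difference was not tested.

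KLK1, tissue kallikrein of the distal nephron, which releases kinins, ran the other way. In the lower series the F2 C pigs had 14.24, 13.38, 14.06 and 14.26 and the F2 E pigs 14.82, 15.13, 15.69 and 14.99. In the upper series the F2 C pigs had 14.82, 15.64, 15.69 and 15.47 and the F2 E pigs 13.91, 13.46, 14.64 and 14.39. The lines again did not overlap in either series. KLK1 rose by 1.18 (SE 0.29, adjusted p 0.0496) in the lower series and fell by 1.31 (adjusted p 0.0338) in the upper series, each in 4 of 4 F2 E pigs. The difference of KLK1 was 2.49 (SE 0.4, adjusted p 0.00173), and its pooled ratio was -0.07. Its line ratios were 0.01 in liver (adjusted p 1) and -0.31 in muscle (adjusted p 0.652), and the difference between the series was not fitted there.

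TF, the plasma iron carrier transferrin, differed in the lower series. There the F2 C pigs had 10.95, 10.2, 10.12 and 10.2 and the F2 E pigs 12.56, 12.2, 12.36 and 12.54. In the upper series the F2 C pigs had 11.97, 12.31, 11.39 and 12.22 and the F2 E pigs 11.93, 11.39, 11.76 and 11.87. The 4 F2 C pigs of the lower series thus stood below all 12 other pigs. TF rose by 2.05 (SE 0.22, adjusted p 6.1e-05) in the lower series, in 4 of 4 F2 E pigs, and had -0.23 in the upper series, with a difference of 2.28 (adjusted p 0.000345). TF is also a liver marker, and the 13 liver markers present had medians of 0.3 and 0.14. Their mean log2 signal per pig spanned 9.46 to 10.71 in F2 C and 9.76 to 11.02 in F2 E in the lower series. Albumin, ALB, spanned 5.59 to 15.62 among the kidney arrays, with ratios of -1.51 and 0.05 in the series, and the part of liver transcripts in the TF difference was not tested.

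SLC45A2 and CCL20 differed in the upper series. SLC45A2, a transporter of pigment cell melanosomes, had 9.86, 10.14, 10.73 and 10.32 in the upper F2 C pigs and 8.16, 7.52, 8.35 and 8.15 in the upper F2 E pigs. In the lower series it had 8.86, 7.31, 8.91 and 8.19 in F2 C and 8.22, 7.72, 8.47 and 8.82 in F2 E. The upper F2 C pigs stood above all others. SLC45A2 fell by 2.22 (SE 0.33, adjusted p 0.00203) in the upper series, in 4 of 4 F2 E pigs, with -0.01 in the lower series and a difference of 2.21 (adjusted p 0.0135). SLC45A2 also fell in the upper series in liver (-2.38, adjusted p 0.00108) and in muscle (-2.65, adjusted p 0.000105) of the same pigs. CCL20, a chemokine that draws lymphocytes and dendritic cells, had 6.28, 5.78, 7.16 and 6.28 in the upper F2 C pigs and 8.19, 8.68, 8.36 and 8.51 in the upper F2 E pigs. In the lower series it had 8, 7.4, 7.87 and 8.7 in F2 C and 8.3, 7.35, 7.97 and 7.84 in F2 E. Here the upper F2 C pigs stood below all others. CCL20 rose by 2.06 (SE 0.3, adjusted p 0.0016) in the upper series, in 4 of 4 F2 E pigs, with -0.13 in the lower series and a difference of -2.19 (adjusted p 0.00674).

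TMSB10 and TRPT1 were also called in 1 series, with calls that other settings ended. In the other series TMSB10 had 0.74 and TRPT1 had 0.44, or -0.13 for TRPT1 without the 2 dim arrays. Both genes were called for the difference between the series (limma adjusted p 0.00382 and 0.0304). TMSB10, which binds actin monomers, had 14.97, 16.42, 15.17 and 15.1 in the lower F2 C pigs and 14.22, 14.23, 14.21 and 13.65 in the lower F2 E pigs. This probe fell by 1.33 (adjusted p 0.0124) in the lower series, in 4 of 4 F2 E pigs, and was not called without the 2 dim arrays (adjusted p 0.0798) or from the 8 lower arrays alone (0.179). The other 3 TMSB10 probes were not called. TRPT1, a tRNA phosphotransferase, had 8.61, 8.88, 9.07 and 8.92 in the upper F2 C pigs and 7.49, 7.42, 7.52 and 7.58 in the upper F2 E pigs. TRPT1 fell there by 1.37 (adjusted p 0.0432), in 4 of 4 F2 E pigs. That call was lost on leaving out any 1 of 9 pigs, F2 C replicates 1, 2, 3, 4 and 7 and F2 E replicates 1, 2, 3 and 8, with adjusted p up to 0.126. It was also lost with normexp background correction (0.0584), scaling to the 75 percentile (0.0782) or no filter on presence (0.0513). TRPT1 also fell in the upper series in liver (-1.41, adjusted p 0.00973) and in muscle (-1.77, adjusted p 7.95e-05) of the same pigs. SLC45A2 and TRPT1 carry a name only through the study's gene tables of other tissues. Those tables list genes chosen for a line difference on these arrays, so the falls of SLC45A2 and TRPT1 in other tissues are no independent evidence.

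**Figure D3:**
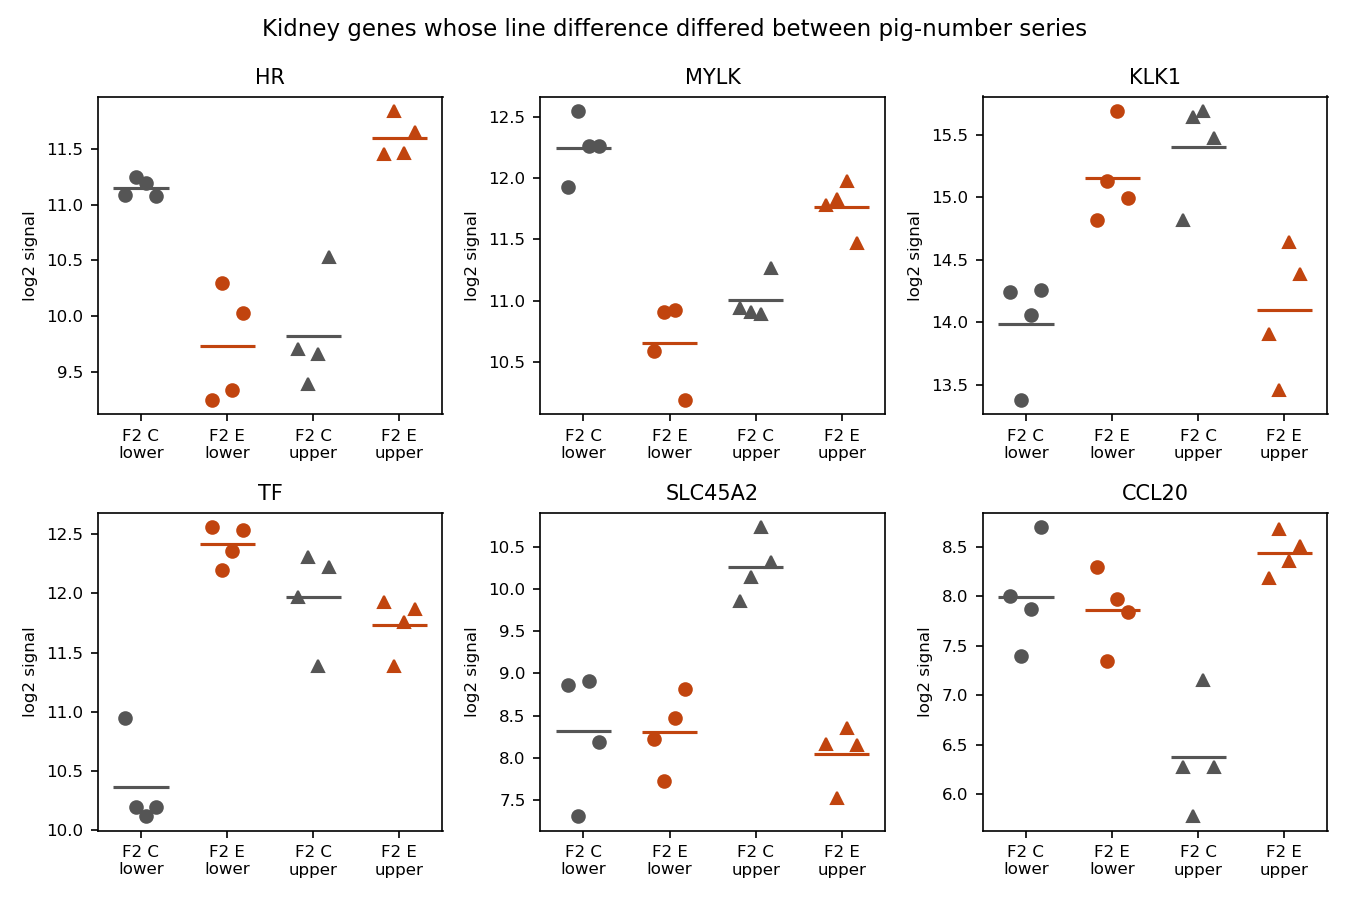
Log2 signal of HR, MYLK, KLK1, TF, SLC45A2 and CCL20 in each pig, by line (grey F2 C, orange F2 E) and pig-number series (circles lower, triangles upper), with a bar at the mean of each 4 pigs. HR, MYLK and KLK1 exchanged the order of the lines between series, and TF, SLC45A2 and CCL20 each had 1 F2 C cell of 4 pigs apart from the other 12 pigs.

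In all, 59 named probes of 58 genes were called for the difference between the series. For 25 of these genes the array holds other probes, 40 in number, of which 33 had the same sign and 13 an unadjusted p under 0.05 with that sign. SLC44A4, a choline and thiamine transporter family member, was called with 2 probes, with differences of 1.34 (adjusted p 0.00894) and 0.95 (adjusted p 0.0463). The genes named next were picked from the 58 after their values were seen. PRMT5, which methylates arginines with S-adenosylmethionine, had 0.66 in the lower and -0.62 in the upper series (difference adjusted p 0.00256). GPX2, a glutathione peroxidase, had -0.89 and 1.12 (adjusted p 0.000941). PDK4, which inhibits pyruvate dehydrogenase, had 1.03 and -0.96 (adjusted p 0.0127). RHBG, an ammonia transporter of the distal nephron, had 0.62 and -0.69 (adjusted p 0.0275). PTPRC, the pan-leukocyte phosphatase CD45, had -0.58 and 0.51 (adjusted p 0.0177). PTGS2, the inducible cyclooxygenase, had -0.55 and 0.74 (adjusted p 0.0331).

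Gene lists of the nephron held few pooled differences. Over the 1890 named genes, 86 had a pooled unadjusted p under 0.05 (4.55%), and the median ratio was -0.01, with 0.01 in the lower and -0.03 in the upper series. Within a series 237 (12.5%) had that p in the lower and 190 (10.1%) in the upper one. Of 19 proximal tubule genes present, 1 reached that p, SLC15A1, a peptide transporter. Its signal was 6.35, 6.71 and 7.32 in F2 C and 5.19, 6.34 and 6.62 in F2 E, with 6 of 8 F2 E pigs well above background (exact p 0.00497). The proximal tubule list had medians of 0.23 in the lower and -0.23 in the upper series, and 13 of its 19 genes had opposite signs, beside 63.7% of all named genes. In the lower series 3 of the 19 were higher and 1 lower at an unadjusted p under 0.05, and in the upper series 1 was lower. SLC22A8, an organic anion transporter, had ratios of 0.02 and -1.09, and SLC22A2, an organic cation transporter, 0.32 and 0.33. Without the 2 dim arrays their lower ratios were 0.29 and 0.64. ENPEP, the brightest of the list, had a pooled ratio of -0.05.

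Of 9 genes of the loop of Henle and distal tubule, 1 had a pooled p under 0.05, beside 4.55% of all named genes. It was PVALB, a calcium-binding protein of the distal tubule. PVALB had 8.93, 9.74 and 10.1 in F2 C and 9.85, 10.37 and 11.1 in F2 E, above the F2 C median in 8 of 8 F2 E pigs. Its ratio was 0.8 (exact p 0.00186), with 0.68 and 0.93 in the series, and PVALB stands in the study's kidney gene table, chosen on these arrays. FXYD2, a subunit of the sodium pump, had a pooled ratio of -0.02. Of 7 collecting duct genes none reached that p by limma, and all 7 had opposite signs in the series, beside 63.7% of all named genes. HSD11B2, which inactivates cortisol in aldosterone target cells, had 10.29, 11.29 and 11.62 in F2 C and 10.19, 10.67 and 11.25 in F2 E, with 0.09 in the lower and -0.96 in the upper series.

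Glomerular genes were few, with 3 present, and 2 of them had a pooled p under 0.05, beside 86 of the 1890 named genes (4.55%). ITGA8, an integrin chain of mesangial cells, had 8.23, 8.81 and 9.02 in F2 C and 8.02, 8.28 and 8.78 in F2 E. WT1, a transcription factor of podocytes, had 7.77, 8.52 and 9 in F2 C and 7.39, 8.09 and 8.52 in F2 E. Every F2 E pig was below the F2 C median for both genes, and the ranges overlapped. The ratios of ITGA8 were -0.42 and -0.41 in the series (pooled exact p 0.00808), and those of WT1 were -0.37 and -0.61 (pooled exact p 0.0329), where the lower WT1 ratio was -0.05 without the 2 dim arrays. VEGFA, the remaining gene, had a pooled ratio of 0.14, and of -0.4 without those arrays. ITGA8 stands in the study's kidney gene table and was thus chosen on these arrays.

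Of 15 renin-angiotensin and vasoactive genes, 1 had a pooled p under 0.05, EPO, the erythropoietin gene. EPO had 7.7, 8.44 and 9.2 in F2 C and 7.36, 9.49 and 11.89 in F2 E, with the F2 E range reaching past F2 C on both sides. Its ratios were 1.82 in the lower and 0.42 in the upper series (pooled exact p 0.0387), and the lower one was 1.11 without the 2 dim arrays. Of 9 genes of vitamin D, calcium and phosphate handling, 0 had a pooled p under 0.05 in limma, against 86 of all 1890 named genes. CYP24A1, which inactivates vitamin D, had a pooled ratio of -0.43, and SLC34A1 had 0.

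The supplement's nutrients enter the one-carbon cycle. Of 11 one-carbon and methyl donor genes, 0 had a pooled unadjusted p under 0.05 in limma, and all 11 had opposite signs in the series, beside 1203 of the 1890 named genes (63.7%). AHCY, which splits S-adenosylhomocysteine, had 14.68, 15.36 and 15.7 in F2 C and 15.06, 15.32 and 15.68 in F2 E. The AHCY ranges overlapped almost in full, with ratios of 0.35 and -0.31 in the series. GNMT, which uses S-adenosylmethionine to methylate glycine, had a pooled ratio of -0.23 (-0.11 without the 2 dim arrays), and FOLR1, a folate receptor, -0.18. Other FOLR1 probes had pooled ratios of 0.12, -0.16 and 0.02. The brightest of these others had 0.09 and 0.15 in the series, so the signs of FOLR1 depend on the probe. Of 8 genes of gluconeogenesis and ammonia, 0 had a pooled unadjusted p under 0.05 in limma and 7 had opposite signs, with a ratio of 0 for FBP1, fructose bisphosphatase.

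Among 30 xenobiotic genes, 2 had a pooled p under 0.05, PON3 and CYP2B22, a cytochrome P450. CYP2B22 had 6.54, 8.3 and 10.33 in F2 C and 7.06, 7.58 and 7.75 in F2 E. Its ratios were -0.08 in the lower and -1.68 in the upper series (pooled exact p 0.0322). CYP2A19, the brightest of the list, had a pooled ratio of 0.59, and of 0.35 without the 2 dim arrays. Of 34 fatty acid and lipid genes, 5 had a pooled p under 0.05, 3 higher and 2 lower in F2 E, beside 4.55% of all named genes. ALOX12, a lipoxygenase that acts on arachidonic acid, had 7.21, 7.35 and 7.6 in F2 C and 6.6, 6.86 and 7.08 in F2 E. The lines did not overlap for ALOX12 (pooled exact p 0.000155). ALOX12 fell by 0.69 in the lower series (adjusted p 0.00303), in 4 of 4 F2 E pigs, and had -0.34 in the upper one. FABP7, a fatty acid binding protein, had ratios of 0.39 (0.88 without the 2 dim arrays) and 1.09, with 6 of 8 F2 C pigs well above background. ALOX12 and FABP7 are in the study's kidney gene table, which was chosen on these arrays and is no independent evidence of direction. Of that table's 32 probes, 17 were higher and 15 lower in F2 E at an unadjusted p under 0.05.

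Immune and stress lists held 2 genes with a pooled unadjusted p under 0.05. Of 18 swine leukocyte antigen and presentation genes, and of 19 interferon-stimulated genes, 0 had a pooled unadjusted p under 0.05 in limma, with medians of 0.07 and -0.03. SLA-DQB1, a class II antigen chain, had a pooled ratio of 0.4. Of 28 leukocyte markers, 2 were lower at that p, beside 86 of the 1890 named genes (4.55%) that reached it in either direction. GZMB, a protease of cytotoxic cells, had 0.02 and -1.11 in the series (pooled exact p 0.0558). KLRK1, a receptor of natural killer cells, had -0.93 and -0.43 (pooled exact p 0.067). The leukocyte mean log2 signal per pig was 7.97, 8.29 and 8.63 in F2 C and 7.95, 8.19 and 8.62 in F2 E. Of 15 immediate early and heat shock genes, 0 had a pooled p under 0.05 in limma, and the median was 0.11. HMOX1, heme oxygenase, had 13.94, 14.48 and 15.33 in F2 C and 14.25, 14.77 and 18.16 in F2 E, where 1 pig, F2 E replicate 5 with a dim array, stood high.

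Of 40 wounding, injury and matrix genes, 8 had a pooled p under 0.05, 4 in each direction, beside 86 of the 1890 named genes (4.55%). WFDC1, a secreted protein with a protease inhibitor fold, had 10.57, 11.01 and 11.85 in F2 C and 11.38, 11.67 and 12.44 in F2 E, with 0.23 and 1.24 (adjusted p 0.00679) in the series. ENTPD1, which breaks down extracellular ATP, had 9.47, 10.63 and 11.37 in F2 C and 8.67, 9.67 and 10.05 in F2 E, with -1.12 (-0.81 without the 2 dim arrays) and -0.59 in the series. F2, prothrombin, had a pooled ratio of 0.51. WFDC1, ENTPD1 and F2 stand in the study's kidney gene table too, as do ALOX12 and ITGA8, which are also among the 8. These genes were chosen on these arrays, so the count of 8 is no independent evidence. The wounding list had medians of -0.15 in the lower and 0.22 in the upper series.

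Of 18 proliferation genes, 1 had a pooled p under 0.05, beside 4.55% of all named genes. It was KIF18A, a mitotic kinesin from the study's table, with 5.76, 5.87 and 6.1 in F2 C and 5.39, 5.6 and 5.79 in F2 E. Only 3 of 8 F2 E pigs had KIF18A well above background. Of 16 antioxidant genes, 1 had that p, SOD3, the secreted superoxide dismutase, with a pooled ratio of -0.44 (exact p 0.0314). Of 10 genes of the respiratory chain and ATP synthase, 0 had a pooled unadjusted p under 0.05 in limma, and CYTB, the mitochondrial cytochrome b gene, fell by 0.53 in the lower series (adjusted p 0.0137) beside 0.23 in the upper one. The difference of CYTB between the series was called (adjusted p 0.00787).

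Markers of other tissues were taken next. Of 8 adrenal cortex genes and 11 adipocyte genes, 0 had a pooled unadjusted p under 0.05 in limma. The adrenal enzyme CYP17A1 was well above background on 4 of 16 arrays and STAR on 7. The adrenal mean log2 signal per pig was 7.46, 7.53 and 7.88 in F2 C and 7.36, 7.49 and 7.97 in F2 E, and the brightest gene, FDX1, had a ratio of -0.04. The adipocyte mean was 8.32, 8.52 and 8.66 in F2 C and 8.25, 8.52 and 8.6 in F2 E. The 15 skeletal muscle markers present, PVALB among them, had a mean log2 signal per pig of 7.45, 7.59 and 7.77 in F2 C and 7.5, 7.71 and 7.81 in F2 E. Of these 15, 2 had that p, PVALB among them, and the brightest, MYOG, had a pooled ratio of 0.03. Of 13 liver markers 4 had that p, 3 higher and 1 lower, F2, TF and ITIH1 among them, beside 86 of the 1890 named genes (4.55%). The part of liver transcripts in these differences was not tested. Of blood cell markers only 2 were present, ITGA2B and EPOR, with pooled ratios of 0.06 and -0.15. Without the 2 dim arrays these were -0.22 and -0.1.

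**Figure D4:**
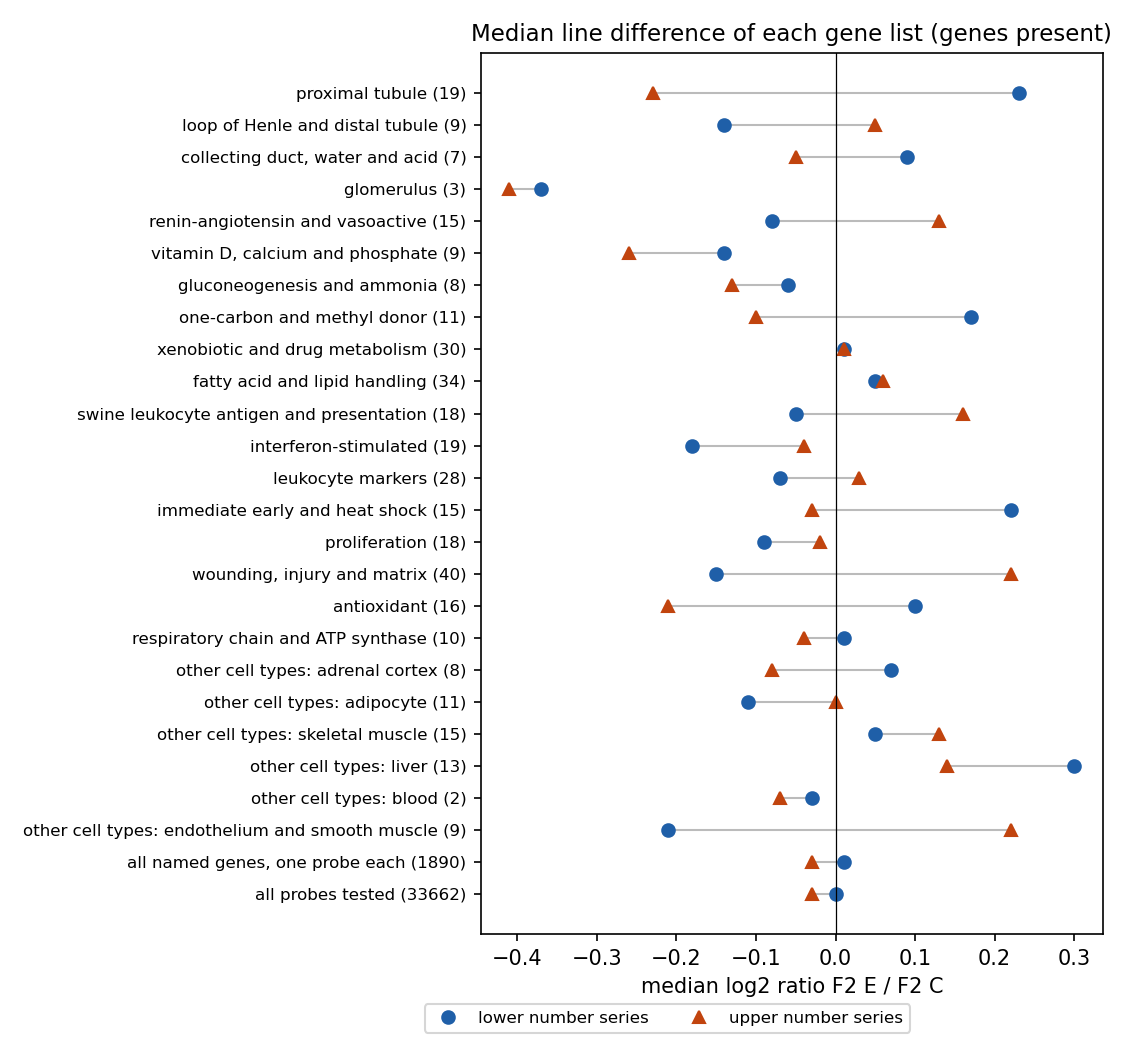
Median log2 ratio F2 E minus F2 C of each gene list in the lower (circles) and upper (triangles) pig-number series, with the number of genes present in brackets. The proximal tubule list lay at 0.23 and -0.23, and all named genes lay at 0.01 and -0.03.

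The line difference of the kidney was compared with that of the same pigs' liver and muscle. Kidney ratio minus the mean of the liver and muscle ratios passed for 13 of 33654 probes (0.0386%), 9 with a positive and 4 with a negative difference. The count was 5 with probes present in all 3 tissues and 8 without the pig as a block. In 4 of the 13 the muscle ratio lay between -5.09 and -4.13 while the kidney ratio lay between 0.02 and 0.38. UCP3 and AGPAT4, the 2 named genes among the 13, were named after their values were seen. UCP3, a mitochondrial carrier best known from muscle, had 6.79, 9.06 and 12.91 in F2 C kidney and 8.25, 12.54 and 13.69 in F2 E kidney. The ranges overlapped widely, the kidney ratio was 2.5 (exact p 0.0286), and the liver and muscle ratios were -2.77 and 0.14. The tissue difference of UCP3 was 3.81 (limma adjusted p 0.0377), with 7 of 8 F2 E kidneys above the F2 C median. AGPAT4, an acyltransferase of phospholipid synthesis, had 14.03, 14.44 and 14.82 in F2 C and 13.66, 13.78 and 14.95 in F2 E. Its tissue difference was -0.93 (adjusted p 0.0492), with 6 of 8 F2 E kidneys below the F2 C median. The others, at 14.95 and 14.51, were F2 E replicates 5 and 7, the 2 dim arrays. Without them the AGPAT4 kidney ratio was -0.68, against -0.44 with them, and the lower ratio was -0.84, against -0.31.

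The difference between the number series was also fitted in the other tissues of these pigs. In liver, where 2 of 4 slides held both lines, 29 of 28810 probes were called (0.101%). In muscle, where 0 of 4 slides held both lines, 1804 of 25597 were called (7.05%). Of the probes called in kidney, 1096 were tested in liver, and 563 of them had the same sign there. At an unadjusted p under 0.05 in liver, 110 had the same and 18 the opposite sign, and 10 were called in both tissues, all with the same sign. In muscle 1060 were tested, and 611 had the same sign. There 252 had the same and 158 the opposite sign at an unadjusted p under 0.05, and 102 and 83 were called in both. These tissues come from the same pigs. The part of the slide in the kidney differences between series was not tested.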

How the data were processed

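The authors scanned 1-colour Agilent porcine arrays and extracted spot values with Feature Extraction, version 10.5.1.1 per the file headers, while the study's methods name an earlier version. The deposited files give each spot's median signal intensity (gMedianSignal), without normalization between arrays, and marks for spots well above background. Total RNA was labelled with Cy3. The authors' own comparisons were not used as values.

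From the 16 kidney files, control spots were dropped, signals were put on the log2 scale and quantile-normalized, spots marked as outliers were left out, and probes with more than 1 spot were averaged. Tested probes had a signal above 25 and marked well above background in 50% or more of 1 line's arrays, and 2 or more unmarked arrays per line, which left 33662 of 43603 probes. The number of arrays limits the precision. limma 3.58.1 in R 4.3.3, with the package data.table (1.17.8), fitted line alone, or 4 cells of line and number series, and the contrast of kidney with liver and muscle on all 48 arrays scaled together, with arrays of 1 pig sharing a correlation of 0.0302. P-values were adjusted by Benjamini and Hochberg over all tested probes. Single genes had exact two-sided permutation tests over 6435 partings of the pigs, with a smallest p of 0.000155. Within a series the smallest exact p is 0.0286, so limma's adjusted p is given there. Fits and exact tests were tested on simulated data. Figures were drawn with matplotlib 3.10.9.

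RefSeq accessions named 2628 probes, and 252 were named from the gene lists that the study printed, of which 15 belong to more than 1 gene, and 2 from its text. The other tested probes, 31056, have no name. Named genes were every pooled call, the 10 largest ratios at a pooled p under 0.01, the 6 largest calls of each series and of the difference, the 8 largest with 1 direction in both series, the brightest and the 3 lowest p of each gene list, and the kidney table that the study printed. UCP3, AGPAT4 and some genes called for the difference were named after their values were seen. The members and lists were chosen with earlier results of these data known. Other signal columns, scalings, filters, blocks, sex as a covariate and leaving out pigs were tried. A few genes that the rule names are not reported.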

Additional observations from a re-analysis of the deposited data

Results flagged for a closer look

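Among 52 groups of 8 pigs checked for a pig far from the others, 3 had one, and chance gives about 1 in 20 groups. F2 C replicate 6 had a PON3 signal of 10.04, where the nearest F2 C pig had 8.45, and a TMSB10 signal of 16.42, where the nearest had 15.17. F2 C replicate 8 had a TRPT1 signal of 9.86, where the nearest had 9.07.

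Of 58 named genes whose line difference differed between the number series in limma, the 6 with the largest differences are given. Lower ratio minus upper ratio was 2.28 for TF, 2.21 for SLC45A2, 2.49 for KLK1, -2.19 for CCL20, -3.19 for HR and -2.36 for MYLK. For UCP3 and AGPAT4 the kidney ratio differed from the mean of the liver and muscle ratios, by 3.81 and -0.93. Line and slide cannot be told apart within a series.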

How the results depend on the processing

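For 34 ratios of single probes, with or without a gene name, 923 values were taken under other settings. Of these values, 0 changed direction, 888 stayed on the same side of the threshold and 35 no longer passed limma's adjusted threshold. The 888 include all values of the pooled ratios of named genes other than MBOAT7. Those ratios were not called to begin with, so they had no call to lose. Some ratios outside the 34 did change direction without the 2 dim arrays. Among them were the lower PON3 ratio (1.36 to -0.35) and the pooled ratios of VEGFA (0.14 to -0.4), ITGA2B (0.06 to -0.22) and ENPEP (-0.05 to 0.17). The pooled count of 4 became 2 with gMedianSignal scaled to the 75 percentile, 2 with probes well above background on all arrays (23557 tested), 1 with slide as a random block, 10 with number series as a fixed block, and 7 without the 2 dim arrays. The methods' t-test gave 5. With the replicate number as a block it was 0 in limma, with 1069 probes at an unadjusted p under 0.05. The numbers do not pair the pigs, since correlations of same-numbered pigs ran from -0.577 to 0.459 and the same number was the best partner in 0 of 8 pairs.

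The 336 probes at a pooled p under 0.01 became 97 with slide as a block and 512 without the dim arrays. The 63 of these that differed at least 2-fold became 136 with gProcessedSignal scaled to the 75 percentile and 40 with normexp on gMedianSignal. The lower-series count of 591 became 272 with scaling of gMedianSignal and 214 from its 8 arrays alone. The upper-series count of 392 became 207 with that scaling and 730 without the dim arrays. The count of 1198 for the difference became 725 with gProcessedSignal and 576 with gMedianSignal, both scaled to the 75 percentile. The tissue count of 13 became 5 with probes present in all 3 tissues and 8 without a pig block. Leaving out each pig gave 4 to 6, 285 to 403 and 56 to 72 for the pooled counts, 373 to 579 for the lower series, 215 to 447 for the upper series and 823 to 1197 for the difference. The lower count was 373 without F2 C replicate 8. The upper count was 240 and 230 without F2 C replicates 1 and 2, and 231, 215 and 234 without F2 E replicates 8, 1 and 2. The causes were not tested.

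Of the probes at a pooled p under 0.01, 163 were higher and 173 lower, against 207 and 82 with scaled gMedianSignal and 141 and 247 with scaled gProcessedSignal. Of the calls for the difference, 353 were positive and 845 negative, against 94 and 631 with scaled gProcessedSignal. Scaling of gMedianSignal moved the median of all probes to 0.187 in the lower series. Normexp on gMedianSignal and leaving out the dim arrays were chosen after seeing the data. Normexp on gMeanSignal was not run, as the files lack that column, nor were the authors' deposited kidney signals, whose columns are not tied to single pigs.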
